A study of Mus musculus with 48 samples.

Results

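The genes described here encode the subunits of oxidative phosphorylation, the 5 protein complexes of the inner mitochondrial membrane that turn the transfer of electrons to oxygen into ATP. They were chosen by symbol: the Nduf genes of complex I, Sdha to Sdhd of complex II, the Uqcr genes of complex III, the Cox4 to Cox8 genes of complex IV and the Atp5 genes of complex V, together with the 13 genes that the mitochondrial genome itself encodes. This gave 98 of the 35870 genes in the count table, 85 nuclear and 13 mitochondrial. Symbols of pseudogenes were left out. Ndufa4, named for complex I but known as a part of complex IV, was counted with complex IV. Atp5s and Atp5sl carry the name of complex V but are not structural subunits of it, and they were kept because the naming rule takes them.

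Polyadenylated RNA was taken from brain microglia, which had been sorted on Cd11b and Cd45, and from the whole spinal cord. The mice were wild type C57BL/6 males, and the 48 libraries fall into 6 groups of 8. Young mice were 3 months old and old mice 23 months old, and both received vehicle. The old repopulated mice, also 23 months old, were given a Csf1r inhibitor for 5 days and then had 7 days of recovery. Csf1r is the receptor that microglia need to survive, so the third group holds cells sorted after depletion and regrowth. Cd11b and Cd45 are shared by other myeloid cells, and the sort as labelled does not separate these from microglia. The labels do not say whether the 8 libraries of a group are 8 animals, and p-values therefore measure the spread between these libraries, which may be technical.

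Complexes I and II pass electrons from NADH and succinate to ubiquinone, complex III passes them on to cytochrome c, and complex IV hands them to oxygen, while complex V uses the proton gradient that I, III and IV build to make ATP. Complex II is wholly nuclear, and the other complexes combine a few mitochondrially encoded core subunits with many nuclear ones, so their assembly depends on both genomes. Macrophages, microglia among them, are known to shift between oxidative phosphorylation and glycolysis with their state of activation.

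The old repopulated cord replicate 6 stood apart from the rest. Its nuclear subunits took 2.06% of all counts against at most 1.03% in the other 7 libraries of its group, its cytosolic ribosomal protein genes took 3.23%, and the mean gene length weighted by counts was 4146.8 bases against a group median of 5301.9. The counts of called cord members by edgeR are therefore given with and without it. Library totals lay between 18741936 and 34496308 counts in microglia and between 15909868 and 33004806 in cord. In microglia, old replicate 7 had the lowest level in its group for 69 of the 83 members that averaged 5 CPM or more, and old replicate 4 the highest for 44. CPM are counts per library scaled to a common total, with library sizes adjusted by the TMM method within a tissue, and levels are compared between genes only as deposited TPM, which are per length.

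Many nuclear subunit genes are known to be controlled by the transcription factor NRF1 and by ETS family factors such as GABP. The promoters of 4 subunits that recur in the results are shown, since they rose together in repopulated microglia: Cox7a2l at chr17:83514284-83514583, Atp5g2 at chr15:102670998-102671297, Ndufa6 at chr15:82354242-82354541 and Uqcrh at chr4:116075021-116075320, all on the minus strand. Each runs from 250 bases before to 50 bases after the start of transcription as annotated by RefSeq on GRCm38.p6, written along the gene. Capitals mark the NRF1 motif (GCGCA, any base, GCGC) or the ETS motif CCGGAAGT, searched on both strands.
Cox7a2l: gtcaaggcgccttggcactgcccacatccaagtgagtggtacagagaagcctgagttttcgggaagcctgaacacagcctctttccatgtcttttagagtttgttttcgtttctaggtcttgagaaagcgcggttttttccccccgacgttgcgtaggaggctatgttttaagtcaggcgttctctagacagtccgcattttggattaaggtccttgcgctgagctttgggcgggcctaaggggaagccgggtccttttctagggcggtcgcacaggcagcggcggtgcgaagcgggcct
Atp5g2: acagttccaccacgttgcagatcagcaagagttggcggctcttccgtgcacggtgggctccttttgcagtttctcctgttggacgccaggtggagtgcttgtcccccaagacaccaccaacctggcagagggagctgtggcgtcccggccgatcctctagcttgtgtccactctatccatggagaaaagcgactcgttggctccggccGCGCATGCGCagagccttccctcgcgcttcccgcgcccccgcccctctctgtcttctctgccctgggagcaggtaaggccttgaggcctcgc
Ndufa6: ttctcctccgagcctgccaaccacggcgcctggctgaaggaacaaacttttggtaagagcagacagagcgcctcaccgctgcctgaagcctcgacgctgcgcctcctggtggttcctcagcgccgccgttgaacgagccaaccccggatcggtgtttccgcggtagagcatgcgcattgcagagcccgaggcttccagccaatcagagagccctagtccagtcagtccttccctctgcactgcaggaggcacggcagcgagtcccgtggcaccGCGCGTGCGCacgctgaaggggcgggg
Uqcrh: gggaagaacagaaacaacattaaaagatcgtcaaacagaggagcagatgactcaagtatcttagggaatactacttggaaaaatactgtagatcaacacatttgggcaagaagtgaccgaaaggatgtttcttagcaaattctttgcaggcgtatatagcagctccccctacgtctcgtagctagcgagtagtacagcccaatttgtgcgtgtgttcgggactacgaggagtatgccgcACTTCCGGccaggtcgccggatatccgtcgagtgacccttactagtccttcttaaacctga
Atp5g2 and Ndufa6 each hold 1 NRF1 motif, Uqcrh holds 1 ETS motif on the opposite strand, and neither string of letters occurs in the Cox7a2l window. RefSeq promoters matched 70 of the 85 nuclear members. The NRF1 motif occurred in 24.3% of these 70 genes and in 5.19% of all 27025 genes with a promoter of this length. The ETS motif occurred in 7.14% of members and in 4.31% of all genes. Cytosolic ribosomal protein genes, for comparison, had the NRF1 motif in 9.23% and the ETS motif in 18.5%. Median GC content was 57.5% for the members and 52.7% for all promoters. Both motifs occurred in 1 member, which counts under each. Among members with a matched promoter, 28.9% of the 45 that rose in repopulated against young microglia and 16.7% of the 24 that were not called had the NRF1 motif, a difference of a few genes that was not tested.

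In brain microglia, counts of both genomes' subunits were higher in old than in young libraries and higher again after repopulation. Mitochondrially encoded subunits took 1.41% to 2.11% of all counts in young microglia (median 1.72%), 1.87% to 2.53% in old (median 2.32%) and 2.34% to 3.68% in repopulated microglia (median 2.73%). Nuclear subunits took 0.390% to 0.470% in young (median 0.426%), 0.367% to 0.592% in old (median 0.508%) and 0.524% to 0.712% in repopulated (median 0.557%). Repopulated and young libraries did not overlap in either share of counts, while old libraries overlapped with both groups. As shares of deposited TPM, the mitochondrial genes did overlap, at 2.72% to 4.11% in young and 3.81% to 6.13% in repopulated microglia. The nuclear genes did not, at 0.934% to 1.07% and 1.19% to 1.57% of TPM. The log2 ratio of the mitochondrial to the nuclear sum was 2.02 ± 0.21 (SD, n = 8) in young, 2.19 ± 0.16 in old and 2.26 ± 0.23 in repopulated microglia. In cord the medians of the 3 groups stayed between 3.98% and 4.19% for the mitochondrial genes and between 0.947% and 0.958% for the nuclear ones, and without replicate 6 the repopulated cord medians were 4.02% and 0.948%. In bulk samples, fewer cells of a type and less RNA per cell cannot be told apart.

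**Figure D1:**
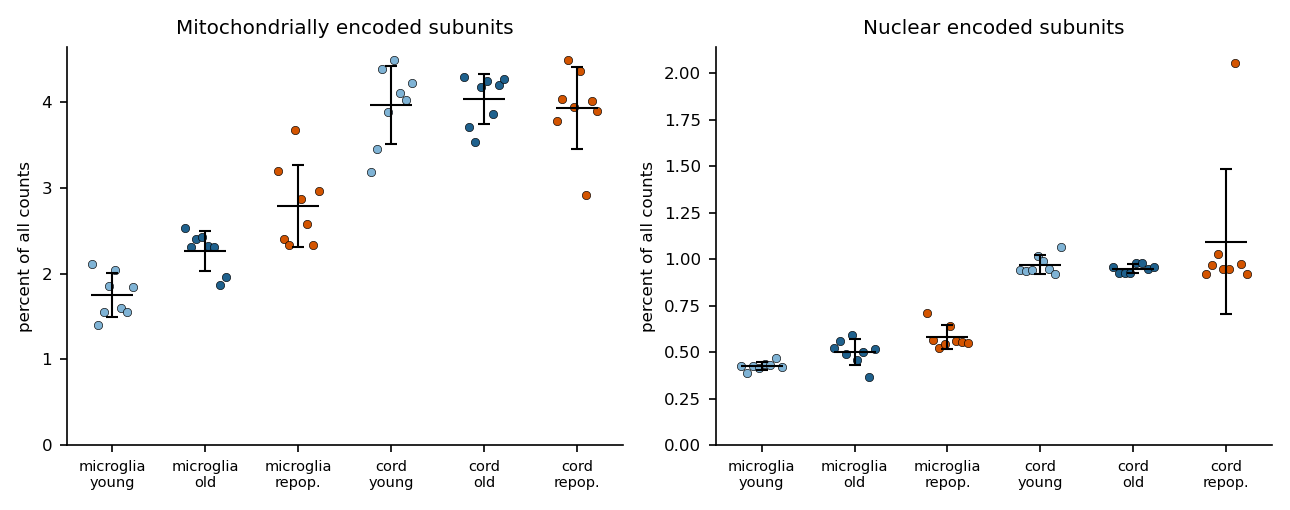
Percent of all counts from the 13 mitochondrially encoded (left) and the 85 nuclear (right) subunits in each of the 48 libraries, 8 per group, with the mean and SD of each group and both axes starting at 0. Repopulated microglia (2.34% to 3.68% mitochondrial) lie wholly above young microglia (1.41% to 2.11%), and 1 repopulated cord library stands apart at 2.06% nuclear.

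Old against young microglia compares vehicle-treated mice of 23 and 3 months, and markers of other cells also differed between these groups, as given below. Of 93 members tested, 21 rose and none fell (edgeR quasi-likelihood test, adjusted p under 0.05), where 11% of all 14382 genes tested were called higher and 10.7% lower. At an unadjusted p under 0.05, 33 were higher and none lower. The median log2 fold change of the members was 0.21, and that of all genes was -0.01. By complex, 9 of 17 tested nuclear genes of complex IV rose (median 0.46), against 3 of 36 of complex I (0.16), none of 4 of complex II (0.08), 2 of 8 of complex III (0.24) and 3 of 17 of complex V (0.19), and 4 of 11 mitochondrially encoded genes rose (0.29). The count depended on single libraries: it was 11 without old replicate 4, 13 without old replicate 1, 12 without young replicate 2 and 37 without old replicate 7. None of the 21 had old and young libraries that did not overlap, where 4.12% of all genes tested had the old libraries wholly above the young ones.

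Repopulated against old microglia compares separate libraries from mice of the same age, with and without depletion and regrowth. Here 33 of 93 members rose, 30 nuclear and 3 mitochondrial, and none fell, where 9.05% of all genes were called higher (51 and 2 at an unadjusted p under 0.05). The median was 0.31 for the members and -0.04 for all genes. The rises were spread over complex I (10 of 36, median 0.26), complex II (1 of 4, 0.10), complex III (4 of 8, 0.38), complex IV (7 of 17, 0.37) and complex V (8 of 17, 0.32), with 3 of 11 mitochondrially encoded genes (0.37). For 7 members, Ndufa6, Uqcrh, COX1, Cox4i1, Cox7a2l, Atp5c1 and Atp5g2, every repopulated library was above every old one, as it was for 2.09% of all genes.

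Repopulated against young microglia, which share the young libraries with the age comparison and the repopulated ones with the second, had 61 of 93 members higher, 55 nuclear and 6 mitochondrial, and none lower, where 16.1% of all genes were called higher (67 and 2 at an unadjusted p under 0.05). The median was 0.49 against -0.06 for all genes. For 33 of the 61, the groups did not overlap, where 7.2% of all genes had repopulated libraries wholly above young ones. Complex III (7 of 8 higher, median 0.62), complex IV (12 of 17, 0.82) and complex V (14 of 17, 0.61) had larger shares of risen genes than complex I (20 of 36, 0.42) and complex II (2 of 4, 0.21).

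**Figure D2:**
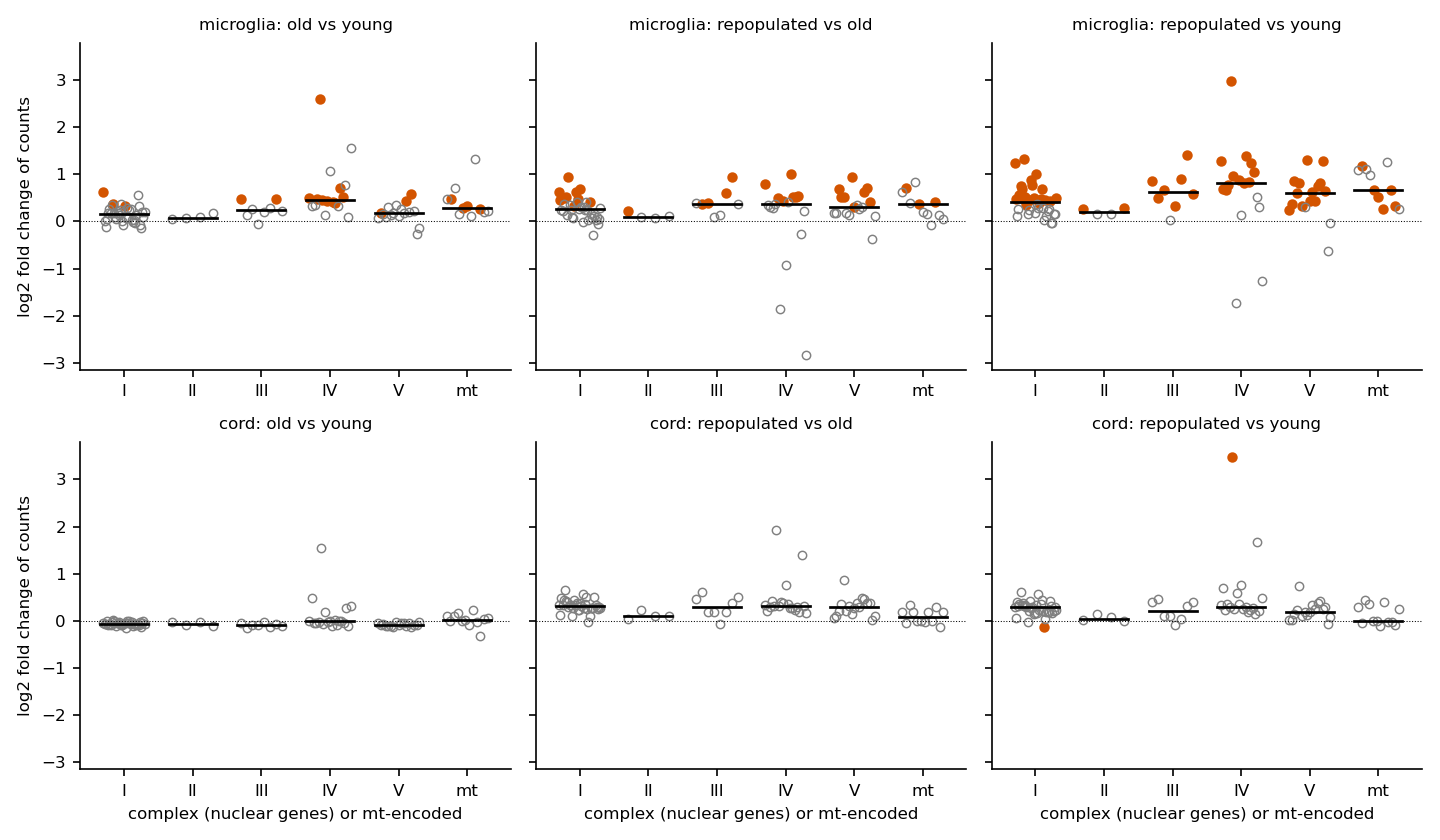
Log2 fold change of every tested member in 6 comparisons, 3 in microglia (top) and 3 in cord (bottom), by complex for nuclear genes and together for mitochondrially encoded (mt) genes; each point is 1 gene, the bar is the median and filled points were called. In repopulated against young microglia the medians run from 0.21 in complex II to 0.82 in complex IV, and no called point lies below 0.

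Gene length moved with these differences. The members are mostly short, and in repopulated against young microglia the 208 other genes of up to 600 bases had a median log2 fold change of 0.80, above that of the 29 members of that length at 0.69. From there to 1000 bases other genes had 0.37 and members 0.52, and from 1000 to 2000 bases other genes had 0.06 and members 0.38. Other genes of over 4000 bases had -0.13. The mean gene length weighted by counts was 3928.5 ± 111.1 bases (SD, n = 8) in young, 3759.2 ± 167.4 in old and 3634.9 ± 89.7 in repopulated microglia. The shift to shorter genes in the count totals went with group, and its part in the subunit results is given next.

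The fit was repeated with an offset that takes out each library's smooth trend on gene length. With this gene length offset, 8 members were higher and 2 lower in old than in young microglia, where 12.5% of all genes were higher and 6.96% lower, so the share of risen members was below that of all genes. In repopulated against old 20 were higher and 5 lower (8.8% and 8.78% of all genes), and in repopulated against young 34 were higher and 14 lower (17.5% and 14.5% of all genes). Of the members called on the counts, 13 of 21, 17 of 33 and 23 of 61 were called in neither direction with the offset. In repopulated against young, Ndufa3, Uqcr11, Atp5k and Ndufs6 were higher on the counts but called lower with the offset. Their offset values were -0.38 (adjusted p = 0.000719), -0.39 (adjusted p = 0.000624), -0.38 (adjusted p = 0.0256) and -0.30 (adjusted p = 0.0248). The nuclear genes of complex I then had medians of 0.00, -0.03 and -0.04 in the 3 comparisons, and in repopulated against young 10 of 36 rose and 9 fell. On the log2(TPM + 1) scale 36 were higher and 9 lower in repopulated than in young, where 8.6% of all genes were higher and 42.7% lower. Across the nuclear members that were tested, Spearman's rho between length and log2 fold change was -0.54, -0.27 and -0.43, given as a description over 82 genes that share all libraries. Called in the reported fit and in all 12 other settings were 6 members for old against young (COX1, Cox4i1, Cox6a2, Cox7a2l, Cox7c and Cox8a), 12 for repopulated against old and 22 for repopulated against young.

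**Figure D3:**
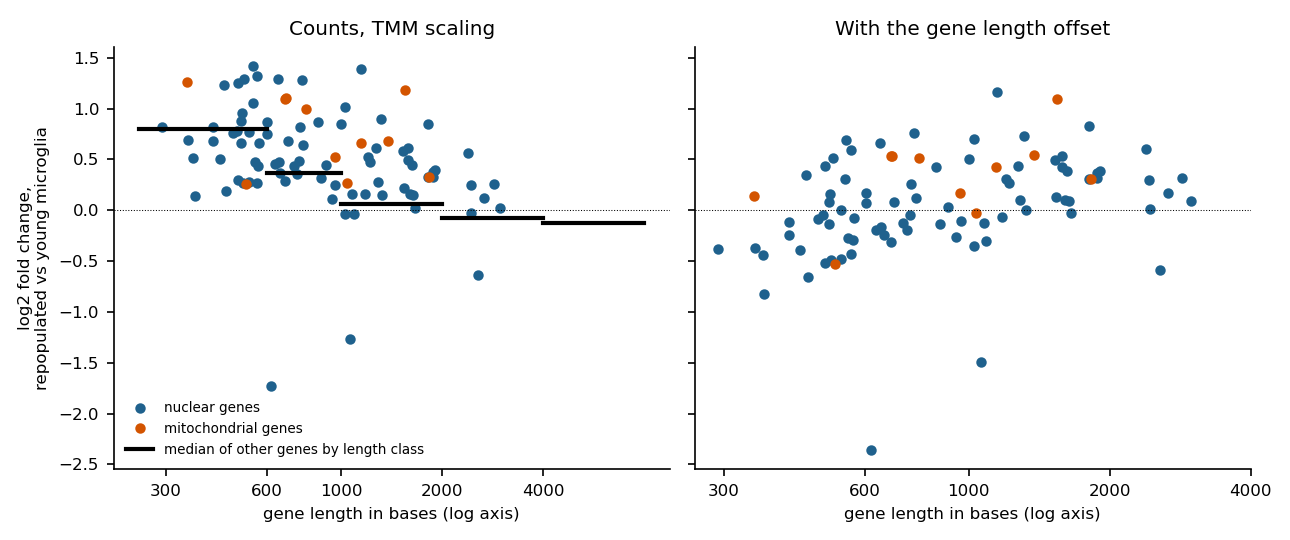
Log2 fold change of repopulated against young microglia by gene length (log axis) for each member except Cox6a2, from the counts (left) and with the gene length offset (right); black bars on the left are the medians of other genes by length class. On the left the bars fall from 0.80 for genes of up to 600 bases to -0.13 for those over 4000 bases, and on the right the members lie on both sides of 0.

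Complex I is the entry point for electrons from NADH and the largest of the 5. Its core subunits, which carry the flavin and iron-sulfur clusters and are conserved from bacteria, had a median log2 fold change of 0.11 over the 7 nuclear genes in repopulated against young microglia. Of the 29 accessory genes, 19 rose, with a median of 0.47. The core genes are also longer, with a median of 1608 bases against 659 for the accessory ones. Ndufs1, the largest core subunit, differed by a log2 of 0.02 (SE 0.09, adjusted p = 0.891) between repopulated and young microglia.

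Among accessory subunits of complex I, Ndufa6 had the smallest adjusted p in repopulated against old microglia. It was at 30.4 to 38.2 CPM in young (median 33.3), 25.9 to 52.3 in old (median 44.5) and 63.7 to 112.2 in repopulated microglia (median 82.8). Every repopulated library was above every old and every young one. The log2 fold change was 0.37 (SE 0.12, adjusted p = 0.0235) in old against young, 0.95 (SE 0.12, adjusted p = 6.21e-07) in repopulated against old and 1.32 (SE 0.12, adjusted p = 1.78e-10) in repopulated against young. With the gene length offset the first of these was 0.06 (adjusted p = 0.696) and the second 0.53 (adjusted p = 1.4e-05). Ndufa1, a small membrane subunit needed for assembly, went from a median of 16.6 CPM in young to 25.6 in old and 39.8 in repopulated microglia, and rose by a log2 of 0.63 (SE 0.16, adjusted p = 0.00477) and then 0.62 (SE 0.16, adjusted p = 0.00773). Both Ndufa1 calls were lost with the gene length offset, at 0.27 (adjusted p = 0.0989) and 0.16 (adjusted p = 0.362). Ndufb5 and Ndufb11, both in the membrane arm, rose in repopulated against old by 0.70 (SE 0.12) and 0.63 (SE 0.12).

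Complex II, succinate dehydrogenase, also belongs to the TCA cycle, and all 4 of its genes are nuclear. Sdha, the flavoprotein, was at 192.5 to 220.2 CPM in young (median 205.2), 188.5 to 229.9 in old (median 216.0) and 225.6 to 274.4 in repopulated microglia (median 244.1). Repopulated and young libraries did not overlap. It rose by a log2 of 0.22 (SE 0.06, adjusted p = 0.00642; -0.04 on the log2(TPM + 1) scale) against old and 0.26 (SE 0.06, adjusted p = 0.00042) against young. Sdhd, a membrane anchor, rose only in repopulated against young among the 3 comparisons, by 0.28 (SE 0.09, adjusted p = 0.016; -0.05 on the log2(TPM + 1) scale, and 0.10 with adjusted p = 0.272 with the gene length offset). Sdhb, the iron-sulfur subunit, and Sdhc, the other anchor, passed the test in none of the 3, with log2 fold changes of 0.16 each in repopulated against young. The mean TPM of all 4 genes was lower in repopulated than in young microglia, for Sdha 170.3 against 177.6. On the log2(TPM + 1) scale the median of all genes was -0.28 in that comparison. With the gene length offset Sdha stayed higher, at 0.22 (adjusted p = 0.00187) against old and 0.32 (adjusted p = 5.47e-06) against young.

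Complex III passes electrons to cytochrome c. Uqcrh, its acidic hinge subunit, which touches cytochrome c1, was at 50.6 to 83.2 CPM in young (median 60.5), 40.4 to 116.7 in old (median 85.0) and 132.8 to 218.5 in repopulated microglia (median 166.8). All repopulated libraries were above all old ones. It rose by a log2 of 0.47 (SE 0.14, adjusted p = 0.0123) with age and by 0.95 (SE 0.14, adjusted p = 6.77e-06) with repopulation, and with the gene length offset these were 0.15 (adjusted p = 0.282) and 0.54 (adjusted p = 2.65e-05). Uqcrfs1, the Rieske iron-sulfur protein, rose in repopulated against old by 0.61 (SE 0.14, adjusted p = 0.00189). The small subunit Uqcr10 rose with age by 0.47 (SE 0.17, adjusted p = 0.0419), but gave 0.20 (adjusted p = 0.335) with the offset and lost the call in 9 of the 24 fits that leave out 1 library. Uqcrc1, a core protein without redox role, did not pass in any of the 3 comparisons, with 0.03 (SE 0.07, adjusted p = 0.819) in repopulated against young. CYTB, the mitochondrially encoded cytochrome b, had a median of 4081 CPM in young, 4945 in old and 5671 in repopulated microglia and passed in all 3, with log2 fold changes of 0.29, 0.37 and 0.66. With the offset the CYTB calls for age and for repopulated against old were lost, at 0.21 (adjusted p = 0.133) and 0.22 (adjusted p = 0.0975), and the age call was lost in 7 of the 24 fits that leave out 1 library.

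Complex IV, cytochrome c oxidase, is the site of oxygen use, and its nuclear subunits include several that exist as tissue isoforms. Cox4i1, the ubiquitous form of the largest nuclear subunit, was at 135.7 to 175.2 CPM in young (median 155.1), 140.9 to 300.4 in old (median 218.7) and 309.5 to 511.3 in repopulated microglia (median 372.2). Repopulated libraries were all above old ones. It rose by a log2 of 0.49 (SE 0.11, adjusted p = 0.00104) with age and by 0.80 (SE 0.11, adjusted p = 2.87e-06) with repopulation. Its paralog Cox4i2, known from lung and oxygen-sensing cells, did not exceed 0.928 CPM in any microglia library and was not tested there.

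Cox7a2l, also known as SCAF1 and described as a factor that joins complexes III and IV into a supercomplex, stepped up between old and repopulated microglia. Supercomplexes were not measured, and the counts do not show whether the protein has this role in these mice. The level of Cox7a2l was 114.5 to 187.6 CPM in young (median 136.5), 99.2 to 248.9 in old (median 173.2) and 291.3 to 416.5 in repopulated microglia (median 365.4). All 8 repopulated libraries lay above all 16 others. The log2 fold change was 0.40 (SE 0.13, adjusted p = 0.0239) in old against young and 0.997 (SE 0.13, adjusted p = 1.26e-06) in repopulated against old. With the gene length offset these were 0.29 (adjusted p = 0.0215) and 0.87 (adjusted p = 1.92e-08). Its paralog Cox7a2, the ordinary subunit, had medians of 24.1, 32.2 and 40.8 CPM and rose by 0.41 (SE 0.15, adjusted p = 0.0438; 0.18 with adjusted p = 0.271 with the offset) with age, whereas repopulated against old gave 0.40 (SE 0.15, adjusted p = 0.0585). Cox7a1, the heart and muscle form, did not exceed 2.13 CPM in microglia.

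Cox6a2, the heart and muscle form of subunit 6a, had the largest log2 fold change with age of any member that passed. It was at 0.911 to 4.67 CPM in young (median 2.20), 0.994 to 20.3 in old (median 15.0) and 10.4 to 22.9 in repopulated microglia (median 20.1). All repopulated libraries were above all young ones, and among old libraries replicate 7, at 0.994 CPM, lay within the young range. The log2 fold change was 2.61 (SE 0.35, adjusted p = 1.06e-06) in old against young, or 2.80 (SE 0.24, adjusted p = 3.1e-10) without that library, 0.37 (SE 0.32, adjusted p = 0.495) in repopulated against old and 2.98 (SE 0.35, adjusted p = 5.28e-08) in repopulated against young. The summed level of 6 skeletal muscle markers (Acta1, Ckm, Myh1, Myh4, Tnnt3 and Mylpf) did not exceed 1.78 CPM in any microglia library, and Myh1 was at 0 in all 24. Cox6a1, the ubiquitous form, had medians of 72.6, 104.6 and 122.6 CPM and rose by 0.48 (SE 0.12, adjusted p = 0.00227) with age, or 0.16 (adjusted p = 0.0939) with the gene length offset. Per length, Cox6a2 reached a mean of 53.8 TPM in repopulated microglia against 471.6 TPM for Cox6a1.

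The small subunits Cox7c, Cox8a and Cox6b1 were called higher at both steps on the counts, but the second step was lost for all 3 with the gene length offset. Cox7c had medians of 15.99, 25.7 and 37.1 CPM and log2 fold changes of 0.70 (SE 0.17, adjusted p = 0.00256) and 0.53 (SE 0.17, adjusted p = 0.0299), and with the offset 0.32 (adjusted p = 0.0326) and 0.02 (adjusted p = 0.91). Cox8a had medians of 72.2, 105.6 and 153.5 CPM and log2 fold changes of 0.51 (SE 0.13, adjusted p = 0.00272) and 0.54 (SE 0.13, adjusted p = 0.00248), and with the offset 0.19 (adjusted p = 0.0169) and 0.12 (adjusted p = 0.15). Cox6b1, which helps hold the enzyme as a dimer, had 0.46 and 0.49 on the counts, and both calls were lost with the offset, at 0.14 (adjusted p = 0.102) and 0.02 (adjusted p = 0.866). Cox7b rose in repopulated against old by 0.52 (SE 0.13, adjusted p = 0.00498). Ndufa4 had medians of 40.5, 42.4 and 48.8 CPM and did not pass in any of the 3 comparisons on the counts. With the gene length offset Ndufa4 was called lower in repopulated against old, at -0.26, and against young, at -0.52. The muscle form Cox8b stayed at or under 3.15 CPM, the testis forms Cox7b2 and Cox8c were at or near 0, and Cox6b2, another testis form, reached at most 4.24 CPM. Ndufa4l2, known as a target of hypoxia signalling, reached at most 2.80 CPM in microglia and passed in none of the 3.

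**Figure D4:**
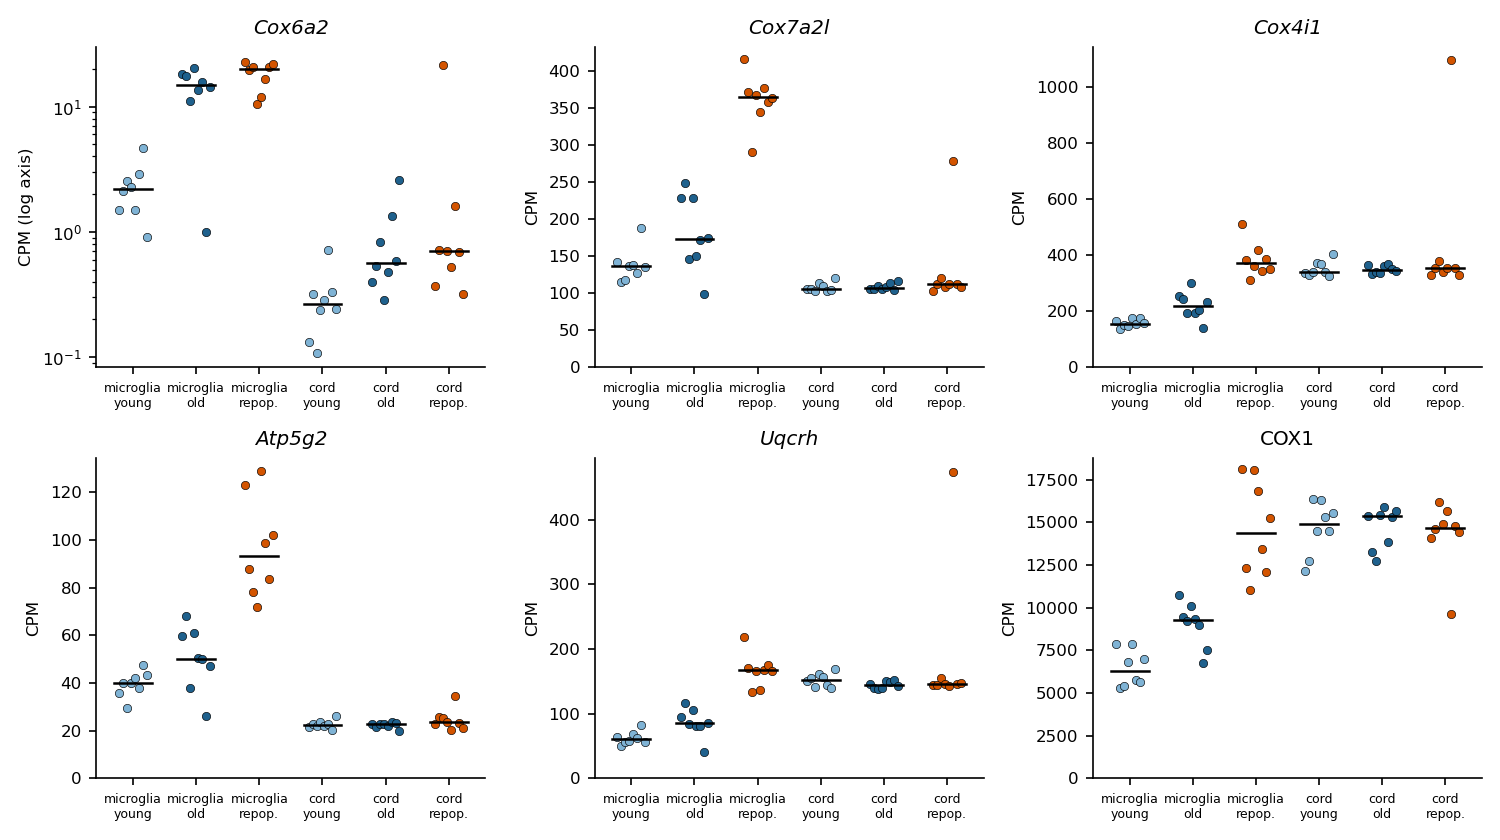
CPM of 6 members that recur in the text in each of the 48 libraries, 8 per group, with black lines at group medians and a log axis for Cox6a2 only. Microglia and cord were scaled separately, and within microglia Cox7a2l runs from 291.3 to 416.5 CPM after repopulation against at most 248.9 in old libraries.

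Complex V, the ATP synthase, has a catalytic head (the products of Atp5a1, Atp5b, Atp5c1, Atp5d and Atp5e) and a membrane ring of identical c subunits, which Atp5g1, Atp5g2 and Atp5g3 encode as 3 genes for the same mature protein. The 3 c-ring genes differed in response. Atp5g2 was at 29.6 to 47.5 CPM in young (median 39.8), 26.1 to 68.1 in old (median 50.3) and 72.1 to 129.0 in repopulated microglia (median 93.4). Repopulated libraries were all above the others. Its log2 fold change was 0.34 (SE 0.14, adjusted p = 0.0916) with age and 0.95 (SE 0.14, adjusted p = 1.33e-05) with repopulation. Atp5g3 rose with repopulation by 0.32 (SE 0.11, adjusted p = 0.0384), from a median of 55.5 to 65.8 CPM, but gave -0.01 with the gene length offset. Atp5g1 gave 0.13 (SE 0.15, adjusted p = 0.633), and its medians were 40.0, 46.4 and 46.4 CPM. The difference between the 3 genes was not itself tested. Per length, they were at 113.4 (Atp5g1), 149.3 (Atp5g2) and 170.7 TPM (Atp5g3) in young microglia, and at 112.0, 292.8 and 183.7 TPM in repopulated microglia.

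In the head of the synthase, Atp5c1, the central shaft, had medians of 93.7, 106.6 and 161.2 CPM, with all repopulated libraries above all old ones. It rose by a log2 of 0.69 (SE 0.11, adjusted p = 2.38e-05) with repopulation and gave 0.16 (SE 0.11, adjusted p = 0.344) with age. The catalytic Atp5b rose with age by 0.19 (SE 0.07, adjusted p = 0.0423) and gave 0.19 (SE 0.07, adjusted p = 0.0534) with repopulation. Atp5a1 passed only in repopulated against young among the 3 comparisons, at 0.25 (SE 0.07, adjusted p = 0.00576), or 0.29 (adjusted p = 0.000351) with the gene length offset. Its mean TPM was 414.6 in young and 394.0 in repopulated microglia. Of the small membrane subunits, Atp5l rose at both steps by 0.59 (SE 0.19, adjusted p = 0.0245) and 0.70 (SE 0.19, adjusted p = 0.00997), and Atp5j2 rose with age by 0.44 (SE 0.13, adjusted p = 0.0137). All 3 calls were lost with the gene length offset, for Atp5l at 0.24 (adjusted p = 0.304) and 0.27 (adjusted p = 0.223) and for Atp5j2 at 0.08 (adjusted p = 0.556). Atp5s and Atp5sl, which are not structural subunits, did not pass in any of the 3 and had negative values in repopulated against young.

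Of the mitochondrially encoded genes, COX1, the catalytic subunit of complex IV, had the largest rise among those that passed. It was at 5293 to 7870 CPM in young (median 6282), 6774 to 10747 in old (median 9275) and 11045 to 18116 in repopulated microglia (median 14338). Repopulated libraries were all above old ones. It rose by a log2 of 0.48 (SE 0.11, adjusted p = 0.00132) with age and by 0.70 (SE 0.11, adjusted p = 2.17e-05) with repopulation. The complex I gene ND4 rose by 0.27 (SE 0.09, adjusted p = 0.0379) and 0.41 (SE 0.09, adjusted p = 0.00235), and ND1 rose with age by 0.32 (SE 0.11, adjusted p = 0.0357; 0.19 with adjusted p = 0.262 with the offset) and gave 0.20 (SE 0.11, adjusted p = 0.248) with repopulation. ND2 and ND5 passed only in repopulated against young among the 3, at 0.27 and 0.33, and ND2 turned to -0.06 on the log2(TPM + 1) scale and -0.02 with the gene length offset. ND6 did not pass in any of them on the counts, with medians of 426.6, 519.5 and 537.2 CPM. With the gene length offset ND6 was called lower in repopulated microglia than in old and than in young. ND6 lies on the other strand from the remaining protein genes, and the library kit does not keep the strand.

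The other 6 mitochondrial genes, COX2, ATP8, ATP6, COX3, ND3 and ND4L, were at or near 0 and are uncertain. Their counts did not exceed 900 in any of the 48 libraries (ND3) or 146 in the other 5, against at least 8160 for each of the 7 above. They lie next to each other on the mitochondrial genome, and nuclear copies of the same stretch lie on chromosome 1 of GRCm38 between positions 24612407 and 24615565. These unprocessed pseudogenes (Gm28661, Gm10925, Gm28437, Gm28438 and Gm10222) matched COX2, ATP6, COX3 and ND4L at 100% and ND3 at 99.71% identity over at least 99% of each gene. ATP8 aligned over 21.1% of its length. The pseudogenes are not in the count table, and how reads that match both places were treated is not given in the sources used here. ND4 aligned to such a copy (Gm28439) over 63.6% of its length, so its level may be understated. The shares of mitochondrial counts given above are in effect those of 7 genes.

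**Figure D5:**
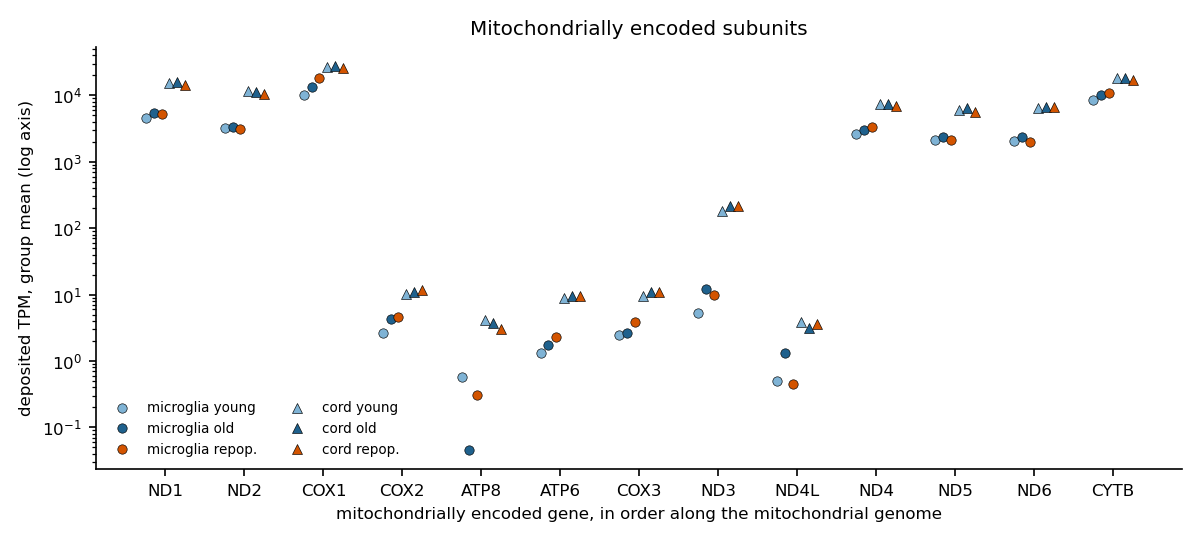
Mean deposited TPM (log axis) of the 13 mitochondrially encoded genes in order along the mitochondrial genome, for the 6 groups of 8 libraries. The run from COX2 to ND4L lies far below the 7 other genes in every group, from 0.046 to 216 TPM against at least 1985 TPM.

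Other mitochondrial gene lists hold longer genes, with median lengths of 1758 bases for assembly factors, 1401 for the mitochondrial ribosome, 2371 for the TCA cycle and 3852 for biogenesis, so their values are not matched to those of the subunits. In repopulated against young microglia, where 16.1% of all genes rose and 16.5% fell, 8 of 44 tested assembly factors rose and 3 fell (median -0.01). The smallest adjusted p was that of Coa5, an assembly factor of complex IV, at 0.85 (SE 0.09, adjusted p = 1.09e-08), while Uqcc1, which assists complex III, gave -0.43 (SE 0.09, adjusted p = 0.000403). Of 78 genes of the mitochondrial ribosome, 17 rose and 5 fell (median 0.13), with Mrpl30 at 1.25 (SE 0.15). Of 19 genes of mitochondrial biogenesis and gene expression, 2 rose and 2 fell (median -0.15), and the factor Nrf1 itself fell by 0.38 on the log2 scale (SE 0.13, adjusted p = 0.0192). Of 14 TCA cycle genes, 4 rose and 1 fell, with the citrate synthase gene Cs at 0.44 (SE 0.08) and Idh2, the mitochondrial NADP-linked isocitrate dehydrogenase, at -0.80 (SE 0.08, adjusted p = 4.45e-09). The electron carrier list had 1 of 2 genes higher.

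Glycolysis and the cytosolic ribosome also moved. In repopulated against young microglia 11 of 18 glycolysis genes rose and 1 fell (median 0.53), led by Gpi1 at 1.37 (SE 0.095), Pkm at 1.04 (SE 0.07) and Pgk1 at 1.01 (SE 0.09). Glycolysis genes are longer, with a median of 2910 bases. Of 84 cytosolic ribosomal protein genes, which are short at a median of 818 bases, 82 rose and none fell (median 1.41), and the summed share of this class was 2.41%, 3.55% and 5.77% of counts on average in young, old and repopulated microglia. In old against young, 9 glycolysis genes rose and 2 fell and 79 ribosomal genes rose, where 11% of all genes rose and 10.7% fell. In repopulated against old the counts were 7 and 2 and 79, where 9.05% of all genes rose and 7.2% fell. Assembly factors, biogenesis, mitochondrial ribosome and TCA cycle each had at most 8 genes higher in either of these comparisons. These lists hold 46, 19, 78 and 14 genes, so the same count is a different share of each.

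Markers of other cells moved with the groups in microglia. The summed level of 6 neutrophil genes was highest in old libraries, at 1892 to 8384 CPM, against 199.3 to 943.8 CPM in young and 739.9 to 3383 CPM in repopulated ones, and in the order young, old, repopulated 5 monocyte genes summed to 32.6 to 89.4, 231.9 to 620.8 and 92.0 to 256.0 CPM. The 6 markers of border-associated macrophages summed to 151.4 to 382.2, 287.2 to 628.0 and 69.7 to 145.8 CPM. The 6 microglia markers summed to 45070 to 53147 CPM in young libraries, above old ones at 32109 to 39745 CPM and repopulated ones at 30858 to 39137 CPM. The part of these cells in the subunit results was not tested.

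In whole spinal cord, no subunit passed the test for age. None of 96 members was called higher or lower in old against young cord (edgeR quasi-likelihood test), where 4.88% of all 18271 genes tested were called higher and 1.26% lower. At an unadjusted p under 0.05, 1 was lower and none higher, DESeq2 called 1 lower, and limma-voom with quality weights called 2 higher and 4 lower, all with every library. Over all 18271 genes DESeq2 called 1009 higher and 389 lower, and limma-voom 1573 and 857. The median by edgeR was -0.05 for the members and -0.01 for all genes. Without old repopulated cord replicate 6, which enters through the shared estimate of spread, 1 member rose, Cox4i2 by 0.49, and 7 fell: Ndufs1, Ndufa9, Ndufb6 and Ndufs8 of complex I, Uqcrfs1 of complex III, and Atp5b and Atp5f1 of complex V. In that fit 7.76% of all genes were called higher and 3.7% lower. The log2 fold changes of these 7 lay between -0.14 and -0.08.

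Ndufs1 was at 152.0 to 163.9 CPM in young cord (median 155.2), 133.2 to 151.8 in old (median 144.4) and 129.0 to 148.1 in repopulated cord (median 144.9). Young cord lay wholly above both old groups. The log2 fold change was -0.12 (SE 0.04, adjusted p = 0.0642) in old against young and -0.14 (SE 0.04, adjusted p = 0.0117) in repopulated against young. Without repopulated replicate 6 these were -0.11 (adjusted p = 0.00626) and -0.12 (adjusted p = 0.00422).

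Repopulated against old cord had no member called in either direction (edgeR), where 0.148% of all genes were called higher and none lower, and 13 members were higher and none lower at an unadjusted p under 0.05. Without replicate 6 none was called either, and 4 were higher and none lower at an unadjusted p under 0.05. With every library DESeq2 and limma-voom also called none. The median of the members was 0.29, and it was 0.01 without replicate 6. Repopulated against young cord had 1 member higher, Cox6a2, and 1 lower, Ndufs1, where 7.28% of all genes were called higher and 2.78% lower. Without replicate 6, Cox6a2 was still called, at a log2 of 3.58, and 5 members fell (Ndufs1, Ndufa9, Ndufs8, Uqcrfs1 and Atp5b), with 9.21% and 4.71% of all genes called.

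In cord, Cox6a2 was at 0.108 to 0.722 CPM in young (median 0.264), 0.286 to 2.59 in old (median 0.564) and 0.321 to 21.3 in repopulated cord (median 0.698). The highest libraries of the 3 groups, young replicate 6, old replicate 8 and repopulated replicate 3, were also those with the highest summed skeletal muscle markers of their group, at 294.2, 654.8 and 2761.7 CPM. Young replicate 8 and old replicate 2 had the next highest muscle sums of their groups, 145.3 and 96.6 CPM. Cox6a2 there was below the group median, at 0.242 and 0.538 CPM. Repopulated replicate 6, which stood apart, had the next highest muscle sum of its group at 102.7 CPM. Its Cox6a2 was also the next highest, at 1.62 CPM. The relation was not tested. The log2 fold change of repopulated against young was 3.48 (SE 0.86, adjusted p = 0.00784), and without repopulated replicate 3 it was 1.21 (SE 0.48, adjusted p = 0.125). In microglia the same muscle markers were at most 1.78 CPM where Cox6a2 reached 22.9.

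Whether the 2 tissues differed in their change was tested as an interaction over all 48 libraries. The labels do not say whether microglia and cord came from the same animals. All contrasts across tissues treated the libraries as unpaired. For age, none of 96 members was called (edgeR; 4 higher and none lower at an unadjusted p under 0.05), where 5.44% of all genes were higher and 15% lower. DESeq2 called 6 members higher (1422 higher and 1477 lower over all 19110 genes), and limma-voom 8 (903 and 3696). The fit without old repopulated cord replicate 6 called 16 higher and none lower, with 7.9% of all genes higher and 8.93% lower. Among those 16 were 8 nuclear complex IV genes (Cox6a1, Cox6b1, Cox4i1, Cox7a2, Cox7c, Cox6c, Cox8a and Cox7b) and COX1, with log2 differences from 0.41 to 0.70.

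For repopulation, 5 members rose more in microglia than in cord and 1 less, where 3.49% of all genes were higher and 7.54% lower. Among them were Atp5g2 (log2 difference 0.79, adjusted p = 0.00244), COX1 (0.71, adjusted p = 0.00398), Cox7a2l (0.70, adjusted p = 0.0241) and Ndufa6 (0.63, adjusted p = 0.0473), and on the other side Ndufa4l2 (-3.01, adjusted p = 0.0427), which was at 0 in some microglia libraries, so that its fold depends on the prior count. Atp5g2, COX1 and Cox7a2l were called in the reported fit and in all 11 other settings tried. Without the cord library that stood apart, 30 members rose more in microglia and none less, with 7.01% of all genes higher and 6.86% lower. Cox4i1 then gave 0.83 (adjusted p = 1.08e-05), Ndufa6 0.99 (adjusted p = 9.91e-07) and Uqcrh 0.96 (adjusted p = 2.96e-05). Tissue, region and preparation cannot be told apart in this contrast.

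Between young microglia and young cord, 9 members were higher in microglia and 59 lower, where 35.4% of all genes were higher and 48.9% lower. The split depends on the scaling, since the median of all genes was -0.48, and with total counts 3 members were higher and 88 lower, where 22.5% of all genes were higher and 64.5% lower (median of all genes -1.29). Without old repopulated cord replicate 6 the counts were 11 and 67, where 34.9% of all genes were higher and 50.3% lower. Higher in microglia under every setting tried were Atp5g2, at a log2 of 1.66 (SE 0.12), and Cox6a2, at 3.78 (SE 0.70), and without that library 1.60 and 3.73. Per length, the order within a complex differed between tissues. Of the c-ring genes in young cord, Atp5g3 at 804.5 ± 35.4 TPM (SD, n = 8) and Atp5g1 at 348.1 TPM were above Atp5g2 at 99.4 TPM. In young microglia Atp5g2 at 149.3 ± 12.4 TPM lay above Atp5g1 at 113.4 ± 12.4 TPM. Its mean was below that of Atp5g3 at 170.7 ± 14.9 TPM, but the SD ranges of Atp5g2 and Atp5g3 overlapped. Atp5b led complex V in both tissues, at 494.8 TPM in microglia and 1821.7 TPM in cord, and Cox4i1 led the nuclear genes of complex IV, at 505.8 and 1308.8 TPM. Next in complex IV came Ndufa4 at 1106.6 TPM in cord and Cox6a1 and Cox8a at 345.9 and 336.2 TPM in microglia, where the libraries of these last overlapped.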

How the data were processed

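Whole-number counts of reads per gene were deposited by the authors for 48 libraries and used as they stand, and deposited TPM values served for levels between genes and as an alternative. STAR 2.5.2b and build GRCm38.p5 are named in the submitters' processing notes, and the tool that made the counts, its gene models and its treatment of multiply mapped reads were not given in the sources used here. Libraries were made from polyadenylated RNA with a kit that keeps no strand, per the labels' protocols. Deposited FPKM values were not used here. Total counts per library are given in the report.

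The members and the gene lists were chosen with earlier results of these data known. Each tissue's 24 libraries were fitted together over all genes with edgeR 4.0.16 in R 4.3.3 (quasi-likelihood test, TMM scaling, filterByExpr with a minimum count of 10 and a minimum total of 15), with Benjamini-Hochberg adjustment over 14382 genes in microglia and 18271 in cord, and a gene was called at an adjusted p under 0.05. Contrasts across tissues used all 48 libraries and 19110 genes. Of the 98 members, 93 passed the filter in microglia and 96 in cord. Named were all mitochondrial genes, all isoform families, the 4 Sdh genes, the 2 called members of each complex and comparison with the largest rise and the 2 with the largest fall (mean of at least 5 CPM), the one with the smallest adjusted p, the 4 members of each interaction with the smallest adjusted p, and up to 3 genes of each other list. Atp5a1, Atp5b, Atp5c1, Atp5d, Atp5f1, Atp5k, Atp5sl, Cox6c, Ndufa3, Ndufa9, Ndufb6, Ndufb11, Ndufs6, Uqcr11 and Uqcrc1 were named after their values were seen. Single values of 1 member are not reported here.

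Alternatives were DESeq2 1.42.0 size factors and its Wald test, total counts with and without mitochondrial genes, no filter and a stricter one (1 CPM in 8 libraries and a mean of 2), limma-voom with quality weights (limma 3.58.1), limma on log2(TPM + 1) and log2(TPM + 0.1), an offset smooth in gene length (span 0.3), the replicate number as a block, only the groups compared, and each library left out. Fits of the contrasts across tissues without old repopulated cord replicate 6 were added after seeing the data. On simulated data for old against young microglia (13767 genes), 65% of 1.5-fold and 95% of 2-fold changes were recovered, and 6.43% of calls were false. With a simulated length trend (13808 genes) 87.7% of calls were false without the offset and 3.87% with it. That trend had a slope of -0.2 per log2 of length, a smooth form that the offset is made to take out. It shifted genes of up to 600 bases by a median of 0.57, where other genes of that length had 0.40 in the data. The 87.7% is therefore not the false share of the reported calls. All 168 pairs of libraries within a group differed by more than sampling noise.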

Additional observations from a re-analysis of the deposited data

Results flagged for a closer look

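Across the 78 groups of 8 libraries examined for a library far from the other 7, 17 held one, where chance alone gives about 1 in 20. In microglia, young replicate 7 was at 188 CPM for Cox7a2l against 142 in the next library.

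Old repopulated cord replicate 6 accounted for 12 of the 17. Its mitochondrial share was 2.92% against 3.78% in the next library, and its nuclear share 2.06% against 1.03%. It was highest for Cox4i1 (1090 CPM against 378), Uqcrh (474 against 156), Cox7a2l (278 against 120), Ndufa6 (189 against 69.0), Cox7c (143 against 53.0), Ndufa1 (82.9 against 30.7), Atp5l (59.2 against 26.5), Atp5g2 (34.4 against 25.8) and Ndufa4l2 (7.86 against 4.56), and lowest for COX1 (9620 CPM against 14100).

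Cox6a2 had a far library in each cord group, young replicate 6 at 0.722 CPM, old replicate 8 at 2.59 CPM and repopulated replicate 3 at 21.3 CPM, the same 3 libraries that had the highest summed muscle markers of their groups. Ndufa6 was at 71.8 CPM in old cord replicate 6 against 67.4 in the next library.

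The change with repopulation differed between microglia and cord, by the interaction test of edgeR, for Atp5g2 (log2 difference 0.79), COX1 (0.71), Cox7a2l (0.70), Ndufa6 (0.63) and Ndufa4l2 (-3.01).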

How the results depend on the processing

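The counts of risen members in microglia shrank most with the gene length offset in old against young and in repopulated against young. In repopulated against old they shrank most on the TPM scales, where fewer of all genes were called higher too. Of all 14382 genes tested, that comparison had 1301 higher and 1035 lower in the reported fit. It had 495 and 4284 on log2(TPM + 1), 592 and 2779 on total counts, and 1265 and 1263 with the offset. Among the members, old against young gave 8 higher and 2 lower with the gene length offset and 11 to 37 higher with 1 library left out. Repopulated against old gave 20 higher and 5 lower with the offset, 16 and 4 on log2(TPM + 1), 16 and 3 on log2(TPM + 0.1), 19 higher on total counts and 20 on total counts without mitochondrial genes, 1 lower by the DESeq2 Wald test, and 24 to 45 higher and 0 to 1 lower with 1 library left out. Repopulated against young gave 34 and 14 with the offset, 36 and 9 on both TPM scales, 1 lower on total counts, on total counts without mitochondrial genes and with limma-voom, and 2 lower with only the groups compared. The mitochondrial share of TPM rose by a log2 of 0.436 in repopulated against young, and the share of counts by 0.679. The cause of these differences was not tested beyond what the offset takes out.

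In cord, old against young gave 1 lower with DESeq2 size factors and by its Wald test, 2 higher and 4 lower with limma-voom, 0 and 5 with the offset, 3 and 5 with only the groups compared, and 0 to 1 higher and 0 to 7 lower with 1 library left out. Repopulated against young gave 2 higher and 0 lower on total counts with or without mitochondrial genes, 0 higher with the stricter filter, 3 higher by the Wald test, 0 and 4 with limma-voom, 0 and 0 on both TPM scales and with only the groups compared, 12 lower with the offset, and 0 to 3 higher and 1 to 5 lower with 1 library left out.

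The age interaction gave 5 higher with DESeq2 size factors and with the offset, 6 by the Wald test, 8 with limma-voom, both TPM scales and both totals, and 16 without old repopulated cord replicate 6. The repopulation interaction gave 9 higher and 0 lower without a filter, 9 and 2 by the Wald test, 2 lower with the stricter filter, log2(TPM + 1) and both totals, 14 higher with limma-voom, 17 and 6 with the offset, and 30 and 0 without that library. Young microglia against young cord gave 3 higher with DESeq2 size factors, the Wald test, both totals and the offset, 14 with limma-voom, 2 higher and 92 lower on log2(TPM + 1), and 2 and 91 on log2(TPM + 0.1).

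The replicate numbers are shared between groups, but same-numbered libraries of a tissue did not deviate together (1, 1 and 2 of 8 pairs over a correlation of 0.1 in microglia, 2, 4 and 2 in cord), so the numbers were not taken as pairs. Same-numbered libraries of microglia and cord were not compared in this way. With the replicate block the microglia comparisons gave 19, 31 and 60 higher, repopulated against young cord 0 higher, and the repopulation interaction 4 higher and 0 lower.

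Some named genes changed sign. On log2(TPM + 1) and log2(TPM + 0.1), Sdha in repopulated against old was -0.036 on both. In repopulated against young, ND2 was -0.06 on both, Sdha -0.063 on both, Sdhc -0.173 and -0.174, and Sdhd -0.052 and -0.053. With the offset, repopulated against old gave ND6 -0.486, Atp5g3 -0.01 and Ndufa4 -0.262, and repopulated against young ND2 -0.023, ND6 -0.533, Atp5g3 -0.124 and Ndufa4 -0.515. ND6 and Ndufa4, not called on the counts, were called lower there in both comparisons. In repopulated against young cord the offset gave Atp5g3 -0.1 and Ndufa4 -0.168, both called lower.

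Young microglia against young cord reversed under rescaling. DESeq2 size factors and the Wald test both gave Sdhb -0.274, Sdhd -0.235 and Ndufa7 -0.078. Total counts gave Sdhc -0.331, Sdhb -0.609, Sdhd -0.571, Ndufs8 -0.163, Ndufa7 -0.413 and Atp5e -0.098, and without mitochondrial genes -0.364, -0.642, -0.603, -0.197, -0.446 and -0.131 in the same order. On log2(TPM + 1) these were -0.587, -0.866, -0.83, -0.42, -0.667 and -0.358, with Cox6b2 at -0.889, and on log2(TPM + 0.1) they were -0.59, -0.87, -0.835, -0.423, -0.674 and -0.359. The offset gave Sdhc -0.172, Sdhb -0.439, Sdhd -0.418 and Ndufa7 -0.253. The cause was not tested.

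These counts compare RNA, not complexes or respiration. Depth was high for most members, and low isoforms such as Cox4i2, Cox7a1 and Cox8b in microglia had too few counts to show a difference.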
